A study of Mus musculus with 4 samples.

Results

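The genes followed here act in messenger RNA (mRNA) decay and were measured in mouse sympathetic ganglia: *Xrn1*, *Xrn2*, *Dcp1a*, *Dcp2*, *Edc4*, *Lsm1*, *Ddx6*, *Pan2*, *Cnot1* and *Upf1*. They were chosen by name for their role in decay, are 10 of 17667 genes listed in at least 1 library, and were all among the 15275 genes listed in all 4 libraries. *Xrn1* was also singled out by the study itself from these same libraries, so its values here are not independent evidence of its direction.

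RNA was taken from the sympathetic ganglia of thoracic levels T1-T4 of C57BL/6 mice aged 12 weeks, each library being a pool of ganglia from several mice. There were 2 wild-type (WT) libraries, WT_1 and WT_2, and 1 library for each mutant genotype. AdNTF3-Tg mice carry a transgene for the neurotrophin NT-3 (*Ntf3*) driven by the promoter of adiponectin, a gene known for its expression in adipocytes. TRKC+/- mice have 1 functional allele of *Ntrk3*, which encodes TRKC, the receptor of NT-3. All mice of the 4 libraries had spent 1 day at 5 °C, and no library from mice kept warm was analysed here, so nothing below measures an effect of cold. The labels do not say which WT library belongs to which mutant, so each mutant library was set against the mean of both WT libraries and against each of them alone.

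Cytoplasmic mRNA decay usually starts at the poly(A) tail. The Pan2-Pan3 and Ccr4-Not complexes shorten the tail, the Lsm1-7 ring and the helicase Ddx6 hand the shortened mRNA to the decapping enzyme Dcp2 with its partners Dcp1 and Edc4, and the exonuclease Xrn1 then digests the uncapped RNA from its 5′ end. Xrn2 is the nuclear counterpart of Xrn1, and Upf1 is the helicase that starts nonsense-mediated decay of mRNAs with a premature stop codon.

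The libraries held between 8665955 and 8894985 reads on genes. A floor of 3 reads was worth 0.337 to 0.346 CPM, a read count scaled to library size. All 13 sympathetic neuron markers, such as *Th* and *Dbh*, were listed in every library, with a summed level of 9892 to 10540 FPKM (fragments per kilobase, a level scaled to transcript length and to the mapped reads of the library). *Ntrk3* was at 2.45 FPKM in WT_1, 2.52 in WT_2, 2.72 in the library labelled TRKC+/- and 2.32 in AdNTF3-Tg. Its log2 ratio in the library labelled TRKC+/- against the WT mean was 0.13, with a 95% counting interval from -0.23 to 0.53, so the targeted gene was not lower in that library. The interval does not reach the level that losing 1 of 2 equally expressed alleles would give. Reads from outside the targeted part of the allele may still be counted, which was not tested. *Ntf3* had 2 reads in the library labelled TRKC+/- and none listed elsewhere.

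*Xrn1*, which encodes the main cytoplasmic 5′ to 3′ exonuclease, is on chr9:95855179-95953446 on the plus strand of NCBIM37 (mm9), with 42 exons in its longest annotated transcript. The authors counted it on 1 RefSeq transcript of 5515 bases. Its level was 1.05 FPKM in WT_1 (50 reads), 0.66 in WT_2 (32 reads), 0.53 in the library labelled TRKC+/- (26 reads) and 1.29 in AdNTF3-Tg (62 reads). The library labelled TRKC+/- was thus below both WT libraries and AdNTF3-Tg above both, while the WT libraries themselves lay apart at 0.855 ± 0.276 FPKM (SD, n = 2).

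Against the WT mean, the log2 ratio of *Xrn1* (of FPKM plus 0.1) was 0.54 in AdNTF3-Tg, with a 95% counting interval from 0.09 to 1.08. In the library labelled TRKC+/- the same ratio was -0.60, with an interval from -1.38 to -0.03. Each passed the study's cutoff of an absolute log2 ratio of at least 0.5, and each interval excluded 0. The intervals are exact Clopper-Pearson intervals from the reads, cover counting error only, and compare these libraries, not the genotypes.

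The difference between the WT libraries was as large: *Xrn1* was at a log2 ratio of -0.60 in WT_2 against WT_1, with an interval from -1.36 to -0.01. The result for each mutant library therefore turned on the WT library it was set against. AdNTF3-Tg was at 0.87 against WT_2 (0.32 to 1.62) but at 0.27 against WT_1 (-0.27 to 0.85). The library labelled TRKC+/- was at -0.87 against WT_1 (-1.72 to -0.27) but at -0.27 against WT_2 (-1.11 to 0.49). Each mutant library passed the cutoff against 1 WT library and not against the other.

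The widest separation was between the mutant libraries, which are the highest and the lowest of the 4. *Xrn1* was at a log2 ratio of 1.14 in AdNTF3-Tg against the library labelled TRKC+/-, with an interval from 0.59 to 1.99. Both comparisons with WT share the same WT libraries and are not independent of each other.

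The counts were also tested with the quasi-likelihood test of edgeR, adjusted by Benjamini-Hochberg over 14156 genes. The model has 1 residual degree of freedom, the difference between the WT libraries, and assumes that a lone mutant library varies as they do. The variance of each gene was also drawn toward that of other genes, with 6.81 prior degrees of freedom. *Xrn1* had a log2 fold change of 0.59 for AdNTF3-Tg minus WT, with an edgeR p of 0.147 and an adjusted p of 0.819. For TRKC+/- minus WT it was -0.68, with an edgeR p of 0.146 and an adjusted p of 0.999. For AdNTF3-Tg minus TRKC+/- it was 1.27, with an edgeR p of 0.0248 and an adjusted p of 0.940. No comparison of *Xrn1* passed an adjusted p of 0.05, and without the filter on low counts the unadjusted edgeR p between the mutant libraries was 0.0654.

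*Xrn2*, the nuclear 5′ to 3′ exonuclease (chr2:146838732-146903736, plus strand), did not share the spread of *Xrn1*. It was at 12.2 FPKM in WT_1 (353 reads), 12.8 in WT_2 (375 reads), 11.4 in the library labelled TRKC+/- (337 reads) and 11.5 in AdNTF3-Tg (336 reads). Both mutant libraries were slightly below both WT libraries, at log2 ratios to the WT mean of -0.12 (-0.31 to 0.06) in AdNTF3-Tg and -0.13 (-0.32 to 0.05) in the library labelled TRKC+/-. Each of these intervals includes 0. The level of *Xrn2* was 8.91 times that of *Xrn1* in AdNTF3-Tg, the lowest ratio, and 21.5 times in the library labelled TRKC+/-, the highest.

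**Figure D1:**
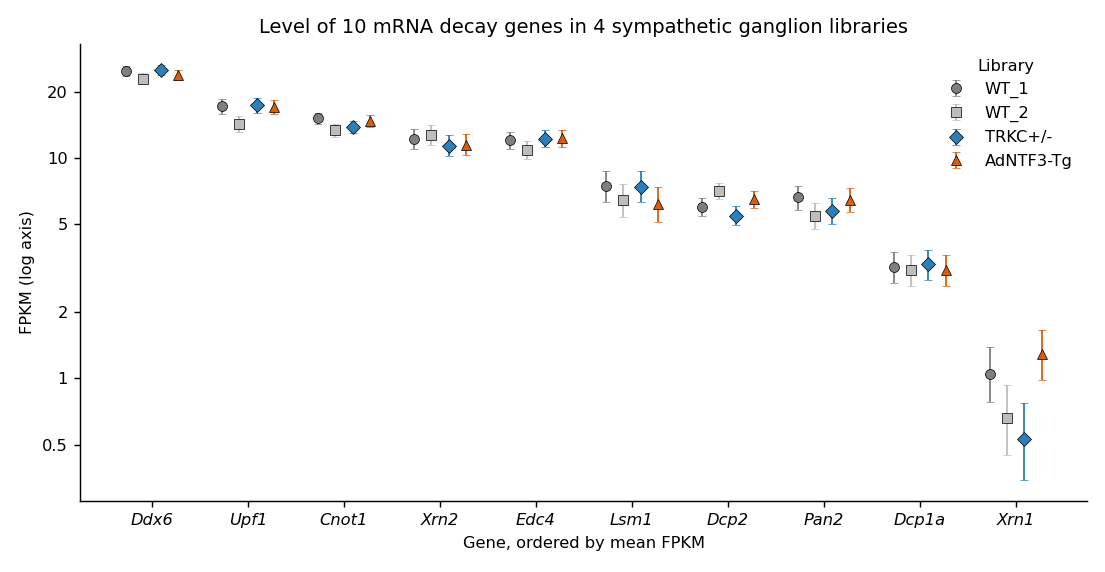
Level of each of the 10 genes in FPKM (vertical log axis) in the 4 libraries, with genes ordered by mean level. Points are single libraries and bars are 95% Poisson counting intervals of the reads. *Xrn1* is the lowest gene in every library and its points run from 0.53 to 1.29 FPKM, while the points of each other gene lie close together.

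The decapping genes differed less between the libraries. *Dcp2*, which encodes the enzyme that removes the cap (chr18:44540154-44584623, plus strand), was at 6.01 FPKM in WT_1, 7.12 in WT_2, 5.48 in the library labelled TRKC+/- and 6.52 in AdNTF3-Tg. The library labelled TRKC+/- was the lowest and AdNTF3-Tg lay between the WT libraries. Against the WT mean, *Dcp2* was at a log2 ratio of -0.26 (-0.43 to -0.10) in the library labelled TRKC+/- and of -0.01 (-0.17 to 0.14) in AdNTF3-Tg. The former was under the cutoff, with an edgeR p of 0.111 and an adjusted p of 0.999, and it came mostly from WT_2: it was -0.37 against WT_2 (-0.56 to -0.19) and -0.13 against WT_1 (-0.33 to 0.06). The WT libraries differed by 0.24 (0.06 to 0.42).

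*Dcp1a*, the activator subunit of Dcp2 (chr14:31292751-31340242, plus strand), was the flattest of the 10 genes. It was at 3.20 FPKM in WT_1, 3.09 in WT_2, 3.29 in the library labelled TRKC+/- and 3.11 in AdNTF3-Tg. Its highest value was 1.06 times its lowest, and its reads (152 to 163) varied less than counting alone gives on average. Its log2 ratio to the WT mean was -0.02 (-0.31 to 0.26) in AdNTF3-Tg and 0.06 (-0.22 to 0.34) in the library labelled TRKC+/-.

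*Edc4*, the scaffold of the decapping complex (chr8:108404781-108418808, plus strand), was at 12.0 FPKM in WT_1, 10.9 in WT_2, 12.3 in the library labelled TRKC+/- and 12.3 in AdNTF3-Tg. Both mutant libraries were just above the higher WT library. The log2 ratio to the WT mean was 0.10 (-0.06 to 0.25) in AdNTF3-Tg and 0.09 (-0.06 to 0.25) in the library labelled TRKC+/-, and both intervals include 0.

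*Lsm1*, the subunit that sets the cytoplasmic Lsm ring apart from the nuclear one (chr8:26896063-26914447, plus strand), was at 7.48 FPKM in WT_1, 6.45 in WT_2, 7.42 in the library labelled TRKC+/- and 6.19 in AdNTF3-Tg. AdNTF3-Tg was the lowest library, at a log2 ratio to the WT mean of -0.17 (-0.49 to 0.13). The library labelled TRKC+/- lay between the WT libraries, at 0.09 (-0.20 to 0.38).

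*Ddx6*, a helicase that represses translation and activates decapping (chr9:44412975-44448814, plus strand), had the highest level of the 10 genes. It was at 24.8 FPKM in WT_1, 22.9 in WT_2, 25.1 in the library labelled TRKC+/- and 23.8 in AdNTF3-Tg. With 1211 to 1333 reads per library its ratios were the most precise: the log2 ratio to the WT mean was -0.00 (-0.10 to 0.10) in AdNTF3-Tg and 0.07 (-0.03 to 0.17) in the library labelled TRKC+/-.

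The deadenylation genes were also within about the spread of the WT libraries. *Pan2*, the nuclease of the Pan2-Pan3 complex (chr10:127740391-127758403, plus strand), was at 6.63 FPKM in WT_1, 5.46 in WT_2, 5.77 in the library labelled TRKC+/- and 6.45 in AdNTF3-Tg. *Cnot1*, the scaffold of the Ccr4-Not complex (chr8:98243351-98331366, minus strand), was at 15.2 FPKM in WT_1, 13.3 in WT_2, 13.8 in the library labelled TRKC+/- and 14.7 in AdNTF3-Tg. For both genes WT_1 was the highest library, WT_2 the lowest, and the mutant libraries lay between them.

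The difference between the WT libraries had an interval that excluded 0 for both genes, with log2 ratios of WT_2 to WT_1 of -0.28 for *Pan2* (-0.56 to -0.02) and -0.18 for *Cnot1* (-0.31 to -0.06). Against the WT mean, *Pan2* was at 0.09 (-0.14 to 0.32) in AdNTF3-Tg and -0.07 (-0.30 to 0.17) in the library labelled TRKC+/-. *Cnot1* was at 0.05 (-0.06 to 0.15) in AdNTF3-Tg and -0.05 (-0.15 to 0.06) in the library labelled TRKC+/-.

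*Upf1* (chr8:72855421-72877172, minus strand) was at 17.2 FPKM in WT_1, 14.3 in WT_2, 17.4 in the library labelled TRKC+/- and 17.1 in AdNTF3-Tg. WT_2 stood below the other libraries, which were nearly equal. Against the WT mean, *Upf1* was at 0.14 (0.01 to 0.28) in the library labelled TRKC+/- and 0.12 (-0.02 to 0.25) in AdNTF3-Tg. Against WT_1 alone these were 0.01 (-0.14 to 0.17) and -0.01 (-0.17 to 0.14), and against WT_2 alone 0.28 (0.13 to 0.45) and 0.26 (0.10 to 0.42), so the distance of each mutant library was that of WT_2. WT_2 was at -0.27 against WT_1 (-0.44 to -0.11).

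**Figure D2:**
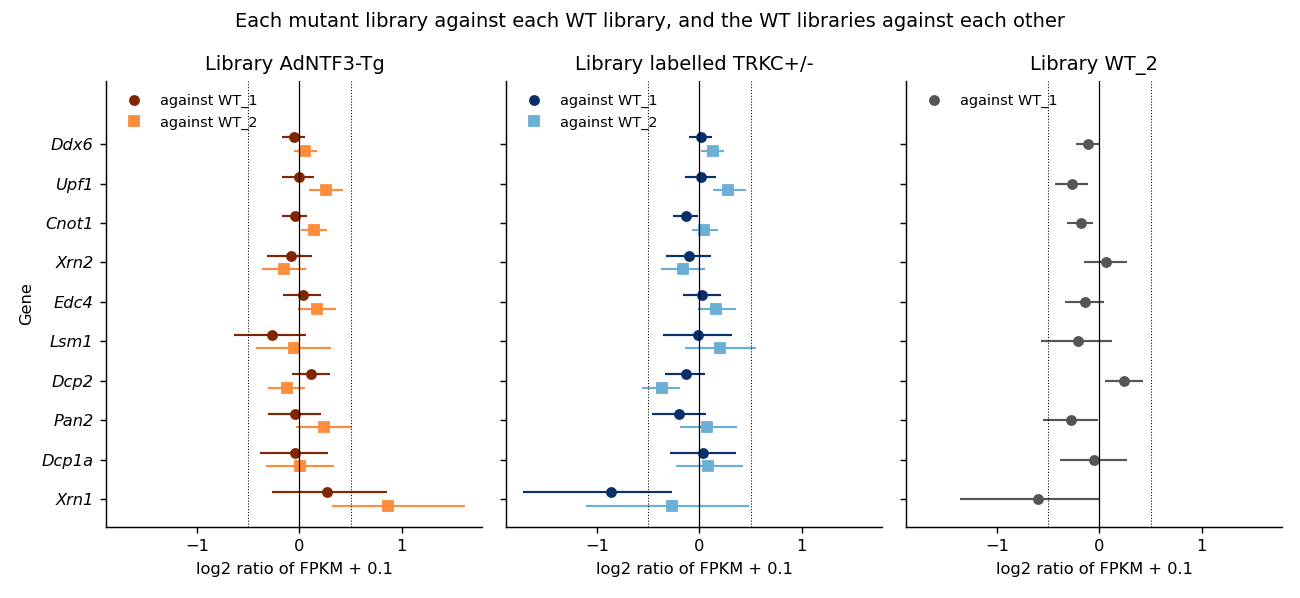
Log2 ratio of FPKM plus 0.1 (horizontal axis) for each of the 10 genes in AdNTF3-Tg and in the library labelled TRKC+/- against each WT library, and in WT_2 against WT_1. Lines are exact 95% counting intervals of the ratio of reads per library total, without the added 0.1, and dotted lines mark the cutoff of 0.5. *Xrn1* is past the cutoff against 1 WT library in each mutant panel, at 0.87 and -0.87, and in the WT panel, at -0.60.

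*Xrn1* was the 1 gene of the 10 past the cutoff against the WT mean in AdNTF3-Tg, where 11.0% of all genes listed in 4 libraries were past it. It was also the 1 of 10 in the library labelled TRKC+/-, where 8.56% of all genes were. WT_2 against WT_1 gave 1 of 10, again *Xrn1*, beside 13.4% of all genes, and AdNTF3-Tg against the library labelled TRKC+/- gave 1 of 10, *Xrn1*, beside 13.1%. The members' counts were therefore near the share over all genes in each of these comparisons, including the one between WT libraries. Each count is *Xrn1* alone, which the study singled out from these same libraries, so it is not a fair match for that share. Without it, 0 of the 9 other genes were past the cutoff in each comparison. The median log2 ratio of the 10 genes was 0.02 in AdNTF3-Tg and 0.01 in the library labelled TRKC+/-, beside -0.00 and 0.0 over all genes.

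Outside the range of the WT libraries were 4 of the 10 genes in AdNTF3-Tg (*Xrn1* and *Edc4* above, *Xrn2* and *Lsm1* below), beside 67.6% of all genes. In the library labelled TRKC+/- there were 7 of 10 (*Dcp1a*, *Edc4*, *Ddx6* and *Upf1* above, *Xrn1*, *Xrn2* and *Dcp2* below), beside 62.6% of all genes. *Edc4* was above in both and *Xrn2* below in both, and *Xrn1* was the only gene of the 10 above in one and below in the other. The study singled out *Xrn1* from these same libraries, and the share of all genes with this opposite pattern is not given here.

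In the edgeR test 0 of the 10 genes passed an adjusted p of 0.05 for AdNTF3-Tg minus WT, beside 0.00% of all genes tested, and 0 passed for TRKC+/- minus WT and for AdNTF3-Tg minus TRKC+/-, beside 0.00706% in each (1 gene). At an unadjusted edgeR p under 0.05 the counts of the 10 genes were 0, 0 and 1 (*Xrn1*), beside 5.88%, 1.93% and 4.68% of all genes. DESeq2 also called 0 of the 10 in each comparison, with an unadjusted p for *Xrn1* of 0.453, 0.405 and 0.171.

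By mean FPKM over the 4 libraries the genes ran from *Ddx6* (24.2) through *Upf1* (16.5), *Cnot1* (14.3), *Xrn2* (12.0), *Edc4* (11.9), *Lsm1* (6.89), *Dcp2* (6.28), *Pan2* (6.08) and *Dcp1a* (3.17) to *Xrn1* (0.883). Between neighbours in this order, the ranges over the libraries overlapped for *Upf1* and *Cnot1*, *Xrn2* and *Edc4*, *Lsm1* and *Dcp2*, and *Dcp2* and *Pan2*. *Upf1* was nevertheless above *Cnot1* in 4 of 4 libraries, whereas in the other overlapping pairs of neighbours the first gene was above the second in 2 of 4. *Xrn1* was the lowest of the 10 in every library, and *Dcp1a* was the next lowest in every library.

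The wider pathway was taken as 119 genes in 6 classes, all listed in all 4 libraries. Their median level was 12.2 FPKM, and *Xrn1* was in place 118 of 119, with only *Ago3* (0.573 FPKM), an Argonaute gene named here after its value was seen, below it. Of all genes listed in 4 libraries, 15.4% had a lower mean FPKM than *Xrn1*. Its low level gives it few reads, so the plot of range against reads sets it beside genes of like depth.

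*Xrn1* varied 2.43-fold between its highest and lowest library, and the other 9 genes between 1.06-fold (*Dcp1a*) and 1.30-fold (*Dcp2*). The index of dispersion, the variance of the reads over the 4 libraries relative to what counting alone would give (about 1), was 6.63 for *Xrn1*. It was 5.87 for *Dcp2*, 5.52 for *Upf1* and 3.65 for *Cnot1*, and between 0.148 and 2.19 for the other genes. Over 13669 genes that averaged 10 reads or more the median was 1.96, and 11.6% were at or above *Xrn1*. In the pathway the median was 2.10 and 8 of 119 genes were above *Xrn1*. The index grows with depth for a given fold, and those 8 genes had more reads than *Xrn1*. The highest among them was *Ythdf3*, a reader of N6-methyladenosine named here after its values were seen, with an index of 30.3 and levels of 10.97 FPKM in WT_1, 16.4 in WT_2, 12.9 in the library labelled TRKC+/- and 17.9 in AdNTF3-Tg.

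**Figure D3:**
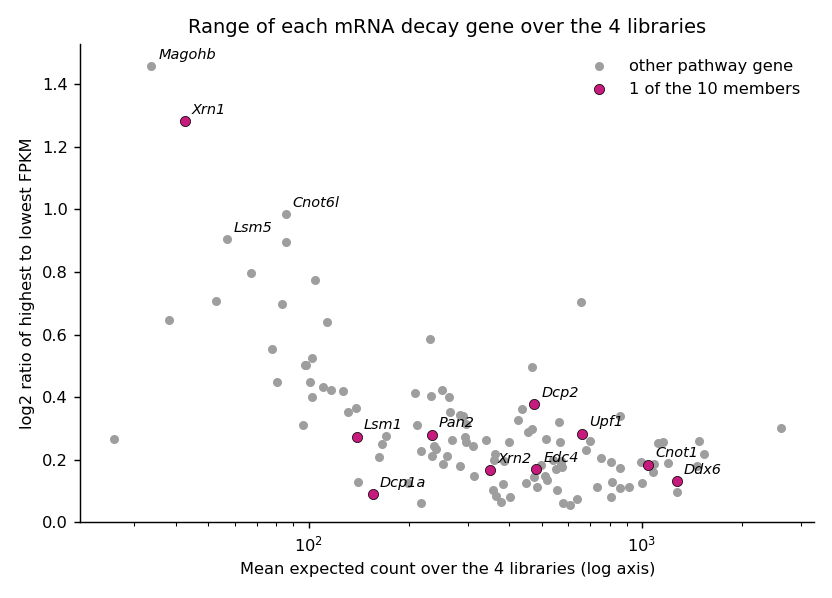
Log2 ratio of the highest to the lowest FPKM over the 4 libraries (vertical axis) against the mean expected count (horizontal log axis) for the 119 pathway genes, with the 10 members in colour. *Xrn1* has a mean of 42.5 reads and a log2 range of 1.28, below *Magohb* at 1.46 and above the other 117 genes.

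Against the WT mean, 5 of 119 pathway genes (4.2%) were past the cutoff in AdNTF3-Tg, with *Xrn1* and *Cnot6l* higher and *Lsm5*, *Nudt16* and *Exosc3* lower. In the library labelled TRKC+/- 4 of 119 (3.36%) were past it, with *Ago4* higher and *Xrn1*, *Mphosph6* and *Magohb* lower. Both shares are under the 11.0% and 8.56% of all genes, many of which have low levels. When genes under a mean of 1 FPKM were left out, *Xrn1* among them, 12752 genes remained and the shares were 4 of 117 pathway genes (3.42%) beside 5.42% in AdNTF3-Tg and 3 of 117 (2.56%) beside 3.35% in the library labelled TRKC+/-. The WT libraries differed past the cutoff for 9 of 119 pathway genes, 5 higher and 4 lower in WT_2, beside 13.4% of all genes. With the same minimum of 1 FPKM it was 7 of 117 (5.98%) beside 7.26%. The edgeR test called 0 of 119 at an adjusted p of 0.05 in each comparison, and at an unadjusted p under 0.05 it had 3 for AdNTF3-Tg minus WT, 2 for TRKC+/- minus WT and 3 for AdNTF3-Tg minus TRKC+/-, beside 5.88%, 1.93% and 4.68% of all genes.

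The median log2 ratio of the 119 genes to the WT mean was -0.00 in the library labelled TRKC+/- and 0.04 in AdNTF3-Tg. The 24 genes of decapping and 5′ to 3′ decay had a median of -0.01 in AdNTF3-Tg, with 1 past the cutoff above and 2 below. In the library labelled TRKC+/- their median was 0.04, with 0 above and 1 below, and that 1 was *Xrn1*. The 21 deadenylation genes had medians of 0.07 and -0.01, with *Cnot6l* alone past the cutoff, in AdNTF3-Tg.

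The 21 exosome and 3′ to 5′ decay genes had a median of -0.04 in AdNTF3-Tg and of -0.07 in the library labelled TRKC+/-, with 1 gene below the cutoff in each. The 20 genes of nonsense-mediated decay had medians of 0.05 and -0.00, with *Magohb* below the cutoff in the library labelled TRKC+/-. The 22 RNA-binding regulators had medians of 0.06 and 0.03 with 0 past the cutoff in either, and the 11 genes of microRNA silencing had medians of 0.10 and -0.01, with *Ago4* above the cutoff in the library labelled TRKC+/-.

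**Figure D4:**
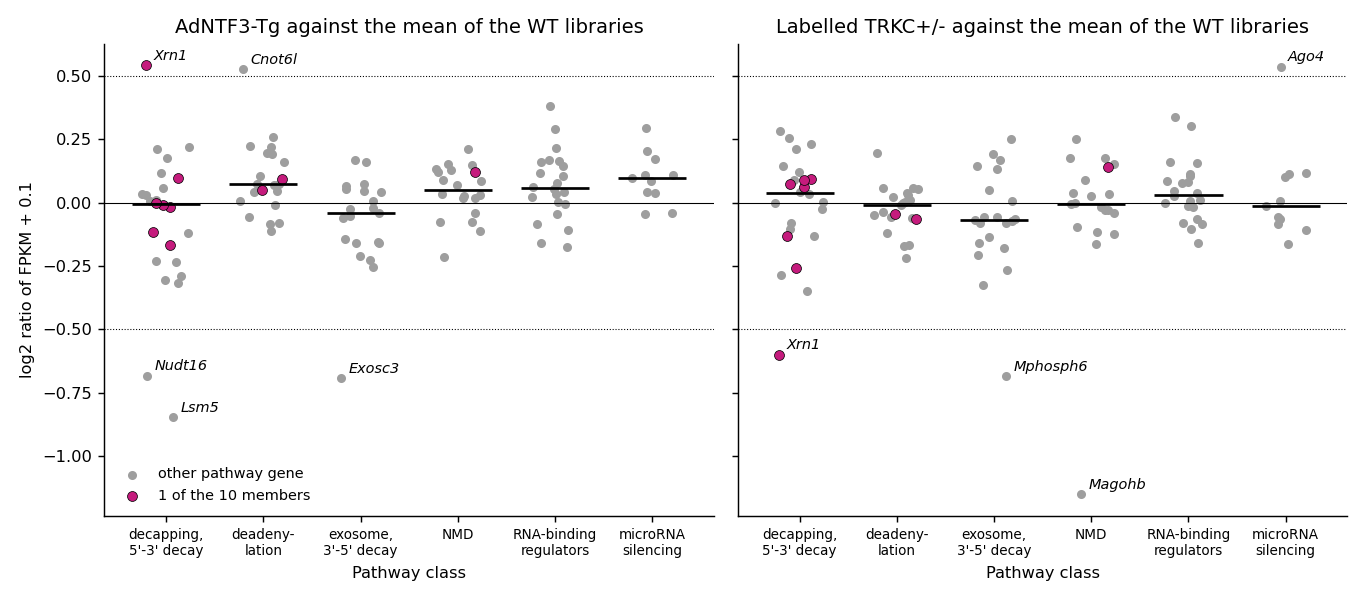
Log2 ratio of FPKM plus 0.1 to the mean of the WT libraries (vertical axis) for 119 pathway genes by class, in AdNTF3-Tg and in the library labelled TRKC+/-. Points are genes, thick lines class medians and dotted lines the cutoff of 0.5. The class medians lie between -0.07 and 0.10, and the 5 and 4 genes past the cutoff are named.

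In AdNTF3-Tg, 3 pathway genes were past the cutoff in the same direction against each WT library with intervals that excluded 0 in both, and *Xrn1* was not among them. *Lsm5*, another subunit of the Lsm ring, was at 17.6 FPKM in WT_1, 16.4 in WT_2, 13.3 in the library labelled TRKC+/- and 9.40 in AdNTF3-Tg (37 to 71 reads). *Nudt16*, which encodes a decapping enzyme, was at 9.48, 8.44, 7.33 and 5.54 FPKM in those libraries in turn (75 to 128 reads). *Exosc3*, a cap subunit of the exosome, was at 6.91, 6.89, 6.57 and 4.23 FPKM (36 to 59 reads). In all of these genes AdNTF3-Tg was the lowest library and the WT libraries were close.

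Their log2 ratios to the WT mean were -0.85 for *Lsm5*, -0.68 for *Nudt16* and -0.69 for *Exosc3*, with edgeR p of 0.0235, 0.0183 and 0.0572 and an adjusted p of 0.817 for each. The 3 of 119 pathway genes past the cutoff against both WT libraries compare with 5.70% of all genes. For the library labelled TRKC+/- it was 1 of 119 beside 4.27%, and that gene, *Magohb* of the exon junction complex, had an interval that included 0 against WT_1. *Magohb* was at 4.83 FPKM in WT_1, 7.45 in WT_2, 2.71 in the library labelled TRKC+/- and 6.84 in AdNTF3-Tg, from 17 to 46 reads. Its edgeR p for TRKC+/- minus WT was 0.0364 and its adjusted p 0.999.

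Closest to the members by function, and named for that after their values were seen, are *Dcp1b* and *Pan3*. *Dcp1b*, the paralog of *Dcp1a*, was at 3.39 FPKM in WT_1, 2.09 in WT_2, 3.35 in the library labelled TRKC+/- and 2.80 in AdNTF3-Tg, so unlike *Dcp1a* it differed between the WT libraries. *Pan3*, the RNA-binding partner of Pan2, was at 5.30, 5.12, 5.18 and 5.99 FPKM in that order.

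The gene with the highest mean level in each class varied by a smaller fold than *Xrn1*, and each had more reads. *Lsm7*, in the same ring as *Lsm1*, was at 57.4 FPKM in WT_1, 73.95 in WT_2, 61.1 in the library labelled TRKC+/- and 55.97 in AdNTF3-Tg. *Pabpc1*, the cytoplasmic poly(A)-binding protein, ranged from 50.5 to 53.9 FPKM, *Hbs1l* of ribosome rescue from 34.2 to 36.8, and *Etf1*, the release factor, from 44.2 to 51.4. *Elavl2*, a neuronal RNA-binding protein, ranged from 66.3 to 81.7 FPKM and *Eif4e2*, a cap-binding repressor of translation, from 25.8 to 29.7.

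The order of libraries of *Xrn1*, with AdNTF3-Tg first, then WT_1, WT_2 and last the library labelled TRKC+/-, was also that of 539 of 15275 genes (3.53%) and of 9 of 119 pathway genes (7.56%), *Xrn1* among them. In these counts a tie between the WT libraries was taken as WT_1 first. The others were *Eif4enif1*, *Btg2*, *Ttc37*, *C1d*, *Hbs1l*, *Pelo*, *Smg5* and *Eif4e2*, and none of these passed the cutoff against the WT mean. *C1d* is counted only through such a tie, at 14.02 FPKM in both WT libraries. Of the 10 members only *Xrn1* had this order.

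The 5 genes whose profiles were nearest to that of *Xrn1* over the 4 libraries, by Euclidean distance of centred log2(FPKM + 0.1) among 13695 genes, were *Cbl* (0.14), *Klhl6* (0.16), *Slc6a19* (0.21), *Cdh6* (0.21) and *Calca* (0.23). Their reads were few: 85 to 171 for *Cbl*, 7 to 21 for *Klhl6*, 37 to 81 for *Slc6a19*, 92 to 167 for *Cdh6* and 23 to 52 for *Calca*. The distances take no account of counting error, so the ranking does not show that these genes vary together. *Cbl*, a ubiquitin ligase, was at 3.29 FPKM in WT_1, 2.34 in WT_2, 1.90 in the library labelled TRKC+/- and 3.87 in AdNTF3-Tg. *Calca*, which encodes the neuropeptide CGRP, was at 4.18, 3.13, 2.75 and 6.19 FPKM in that order. None of the 5 is a gene of mRNA decay in the list, and the nearest of the 119 was *Mphosph6*, an exosome cofactor, at a distance of 0.47.

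Markers of other cell types also differed between the libraries. The summed level of 13 skeletal muscle markers was 147 FPKM in WT_1, 25.8 in WT_2, 83.2 in the library labelled TRKC+/- and 63.2 in AdNTF3-Tg, with 2 of the 13 not listed in WT_2. The 8 adipocyte markers, a list of brown fat genes and general adipocyte genes, summed to 473, 402, 293 and 334 FPKM in the same order. Adiponectin itself (*Adipoq*) was between 6.92 FPKM in AdNTF3-Tg and 14.0 in WT_1. Within this list *Ucp1*, the uncoupling protein of brown fat, was at 7.80 FPKM in the library labelled TRKC+/- and between 37.8 and 48.1 in the other libraries, while *Lep* (0.67 FPKM) was highest there and *Cfd* (90.2 FPKM) lay between the WT libraries. Of the 8 markers, 5 were lowest in the library labelled TRKC+/-. In WT_1, WT_2, that library and AdNTF3-Tg in turn, the 4 blood cell markers summed to 113, 46.8, 102 and 64.1 FPKM and the 8 macrophage markers to 263, 239, 211 and 185. The 9 glial markers summed to between 987 and 1156 FPKM, the 6 endothelial markers to between 32.1 and 37.3, and the 6 fibroblast markers to between 248 and 324. None of the 8 lists had the library order of *Xrn1*, but the order of a sum is no test of the part of these cells. The part of these cells in the values of the decay genes was not tested, and in RNA from whole ganglia fewer cells of a type and less RNA per cell cannot be told apart.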

How the data were processed

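The authors made mRNA libraries with oligo(dT) from pooled ganglia, filtered single-end reads with SOAPnuke and aligned them with HISAT2. The study's methods name mm9, while the submitters' processing notes name RSEM and mm10. The authors deposited, for each Entrez gene, an expected count (not normalized) and an FPKM value. The RefSeq table (GRCm38.p6) named 17619 identifiers (99.7%). Positions are from GENCODE on NCBIM37 (mm9). Whether counting used strand is not given in the sources used here.

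Ratios are log2((FPKM + 0.1)/(FPKM + 0.1)) over genes listed in all 4 libraries, and understate changes of low genes. Expected counts were rounded for exact 95% Clopper-Pearson intervals and for edgeR (4.0.16, TMM, filterByExpr, quasi-likelihood, in R 4.3.3). The intervals are of the ratio of reads per library total, with the reads of both WT libraries pooled for the WT mean. They hold no pseudocount, so a printed FPKM ratio is a different measure and need not lie at their centre. DESeq2 (1.42.0), each WT library alone, other pseudocounts, scalings, filters and cutoffs were alternatives. Scripts were tested on simulated data. The study describes pooled ganglia and a WT control for each mutant. The p-values therefore measure only the spread between these 2 WT libraries, partly shared over genes, and it may hold cohort differences.

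Members, pathway lists and marker lists were chosen with earlier results of these data known. Beside the 10 members, the genes named are those past the cutoff against each WT library with intervals excluding 0, the highest of each class, the 5 profiles nearest *Xrn1*, and *Ntrk3* and *Ntf3*, with other genes past the cutoff or in the library order of *Xrn1*, and *Ago3*, *Ythdf3*, *Dcp1b* and *Pan3*, named after their values were seen.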

Additional observations from a re-analysis of the deposited data

How the results depend on the processing

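The ratio of *Xrn1* to the WT mean kept its direction in every alternative run, which leaving out a WT library could not have turned, and ratios of other genes near 0 changed sign in some. *Xrn1* ranged from 0.27 to 0.87 in AdNTF3-Tg and from -0.87 to -0.27 in the library labelled TRKC+/-, and the other 9 genes from -0.37 to 0.28. The count of the 10 genes past the cutoff ranged from 0 to 1 in each mutant library when 1 WT library was left out: it was 0 in AdNTF3-Tg without WT_2 and 0 in the library labelled TRKC+/- without WT_1. It was 0 in both with a pseudocount of 1 FPKM, with a minimum mean of 1 FPKM (which drops *Xrn1*) and at a cutoff of 1, and 0 in AdNTF3-Tg with the trend on gene length removed (*Xrn1* at 0.47). The count of pathway genes was 3 in AdNTF3-Tg and 2 in the library labelled TRKC+/- with a pseudocount of 1 FPKM, and 0 and 1 at a cutoff of 1. Leaving out 1 WT library gave 4 to 7 and 3 to 5. The count tests called 0 members and 0 pathway genes under every alternative run, and leaving out a WT library left no residual degree of freedom, so no test. No paired analysis was possible because the labels do not say which WT library is the control of which mutant. Of the 10 genes *Xrn1* had the fewest reads, 26 to 62 per library.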
